A study of Mus musculus with 6 samples.

Results

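The interferon-stimulated genes described here are 35 genes that type I or type II interferon is known to induce. They were taken by gene symbol from a deposited matrix of 56534 genes and loci, and every symbol was found. A total of 33 of the 35 had a mean of at least 1 FPKM (fragments scaled by gene length and library size) over the 6 libraries and were tested. The other two, Mx1 and Ifit2, had a mean under 1 FPKM, 0.775 and 0.802, and were not tested.

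The libraries were made from liver RNA of C57BL/6 mice. Wild-type mice gave the libraries CON 1 to CON 3, and mice whose hepatocytes lack CD36, a transporter of long-chain fatty acids, gave LKO 1 to LKO 3 (genotype CD36-/- in the labels). Both groups had eaten a diet with 60 kcal% fat for 16 weeks, so there is no lean or untreated control. Neither the driver of the deletion nor the age or sex of the mice is given in the sources used here, and no label states that each library is a separate mouse. P-values here therefore reflect only how far these libraries scatter, and some of that scatter may be technical.

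Interferons are secreted proteins that warn cells of infection. Type I interferon signals through the receptor IFNAR and the kinases JAK1 and TYK2 to the complex ISGF3, which holds STAT2 and IRF9 and binds the interferon-stimulated response element (ISRE) of target promoters. Type II interferon, made mainly by T cells and natural killer (NK) cells, signals through its receptor IFNGR and acts on promoters with a gamma-activated site (GAS). In liver, hepatocytes, Kupffer cells and endothelial cells all carry these receptors and respond with antiviral proteins, GTPases that attack pathogen vacuoles, and chemokines.

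To show what links these genes in sequence, the 250 bases before the start of each gene were searched on both strands. The sequences are from RefSeq (build GRCm38.p6), which held this window for 29 of the 35 members. The ISRE core was taken as GAAANNGAAA and the GAS core as TTCNNNGAA. The ISRE core stood in 16 of the 29 members (55.2%), against 3.46% of 27025 genes with a window. The GAS core stood in 8 of the 29 (27.6%), against 8.13% of all genes, and both cores stood in 6 of the 29 (20.7%), against 0.459%. A match is a run of letters and not a measured binding site. The windows of 6 genes described below are printed with the matches in capitals, a run of TTTC in place of GAAA being the core on the other strand. Isg15 (chr4:156200819-156201068, minus strand) was chosen for its 3 overlapping ISRE matches, Rsad2 (chr12:26456453-26456702, minus strand) and Stat2 (chr10:128270248-128270497, plus strand) as an ISRE gene with lower and one with higher values in LKO 1 and LKO 2. Gbp2 (chr3:142620413-142620662, plus strand), Igtp (chr11:58199306-58199555, plus strand) and Irgm2 (chr11:58214727-58214976, plus strand) are GTPase genes whose values were lower in LKO 1 and LKO 2 than in LKO 3.
Isg15: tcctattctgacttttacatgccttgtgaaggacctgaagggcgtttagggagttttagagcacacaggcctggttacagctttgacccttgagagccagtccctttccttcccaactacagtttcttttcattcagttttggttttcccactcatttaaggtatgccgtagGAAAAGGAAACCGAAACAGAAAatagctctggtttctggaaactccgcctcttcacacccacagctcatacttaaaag
Rsad2: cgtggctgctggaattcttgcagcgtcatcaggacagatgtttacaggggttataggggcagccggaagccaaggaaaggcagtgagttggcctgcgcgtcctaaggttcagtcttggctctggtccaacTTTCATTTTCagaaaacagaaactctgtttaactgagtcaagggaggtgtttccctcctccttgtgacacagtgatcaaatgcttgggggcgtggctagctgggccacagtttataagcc
Stat2: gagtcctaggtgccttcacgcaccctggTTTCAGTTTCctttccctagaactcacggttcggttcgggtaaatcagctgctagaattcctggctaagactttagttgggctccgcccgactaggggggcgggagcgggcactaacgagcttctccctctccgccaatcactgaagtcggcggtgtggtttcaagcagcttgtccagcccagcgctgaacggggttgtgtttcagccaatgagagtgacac
Gbp2: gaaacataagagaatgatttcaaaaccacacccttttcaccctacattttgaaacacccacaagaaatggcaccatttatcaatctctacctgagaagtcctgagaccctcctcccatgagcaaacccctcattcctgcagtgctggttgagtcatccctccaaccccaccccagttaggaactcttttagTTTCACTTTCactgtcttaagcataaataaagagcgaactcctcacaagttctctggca
Igtp: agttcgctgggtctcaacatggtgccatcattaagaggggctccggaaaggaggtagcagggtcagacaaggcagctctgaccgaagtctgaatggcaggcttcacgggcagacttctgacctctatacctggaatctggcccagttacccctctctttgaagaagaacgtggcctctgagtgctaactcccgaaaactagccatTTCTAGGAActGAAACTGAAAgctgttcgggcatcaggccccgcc
Irgm2: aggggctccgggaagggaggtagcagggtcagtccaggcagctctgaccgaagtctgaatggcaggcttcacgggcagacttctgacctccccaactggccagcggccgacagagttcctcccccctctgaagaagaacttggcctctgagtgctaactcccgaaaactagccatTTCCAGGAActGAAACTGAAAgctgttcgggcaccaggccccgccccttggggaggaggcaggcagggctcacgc
The first ISRE match of Isg15 began 78 bases before the start and the last ended 57 bases before it. In Igtp a GAS match from 45 to 37 bases before the start was followed, after 2 bases, by an ISRE match. Irgm2, its neighbour on chromosome 11, carried the same arrangement from 75 bases before its start.

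Some facts of the libraries bear on all values below. Cd36, the deleted gene, had 61.95, 26.49 and 19.66 FPKM in CON 1 to CON 3, against 2.73, 3.70 and 10.22 FPKM in LKO 1 to LKO 3. The groups did not overlap, and LKO 3 lay closest to CON. The log2 fold change of Cd36 was -2.50 (SE 0.51, limma adjusted p = 0.163), and -2.98 without LKO 3, where it passed the threshold (adjusted p = 0.0165). With all libraries p was 0.1 in an exact permutation test (two-sided), which is the lower limit for 3 libraries against 3. The libraries also differed by gene length. In CON 1, CON 2, CON 3 and LKO 3 longer genes lay higher relative to the gene's mean (Spearman rho across 11104 genes of 0.27, 0.10, 0.29 and 0.21), whereas in LKO 1 and LKO 2 they lay lower (-0.33 and -0.30). LKO 3 therefore stands apart from the other LKO libraries in Cd36 and in this trend, and the results that rest on it are given with and without it. Markers of hepatocytes were abundant in every library, with sums of 44750 to 70030 FPKM over 10 genes, and the Kupffer cell marker Clec4f was at 49.56 to 85.26 FPKM. The RNA is from whole liver, so fewer cells of a type and less RNA per cell cannot be told apart.

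The level of the members spanned a wide range. The mean over the 6 libraries was at least 50 FPKM for 3 members, 10 to 50 FPKM for 9, 1 to 10 FPKM for 21 and under 1 FPKM for 2. The highest were Bst2 (tetherin, which holds budding virus on the cell surface) at 164 FPKM, Ifi27 (a small mitochondrial protein) at 135 FPKM and Iigp1 (an immunity-related GTPase) at 92.7 FPKM. Bst2 spanned 136 to 197 FPKM over the libraries and Ifi27 spanned 79.1 to 166 FPKM, so these neighbours in the order were not separated by more than their spread. After Iigp1 came Irgm1 at a mean of 28.9 FPKM, Irf7 at 21.9, Stat2 at 18.8, Isg15 at 18.1, Ifi35 at 17.7, Igtp at 16.3 and Irf9 at 15.8 FPKM, whose ranges over libraries overlapped. The plot of FPKM by library shows every member.

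**Figure D1:**
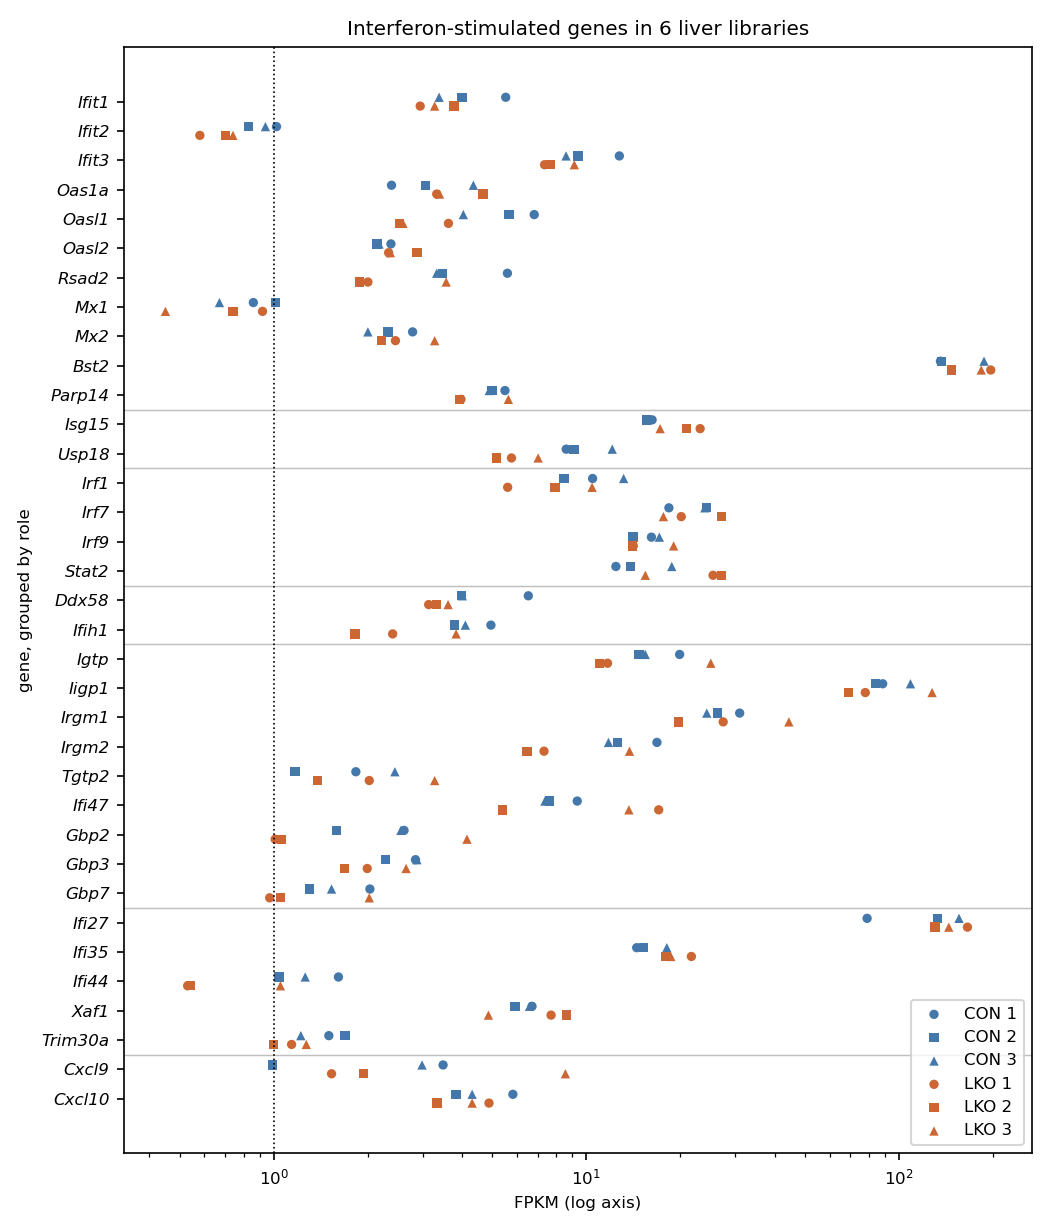
FPKM (log axis) of the 35 interferon-stimulated genes, grouped by role, in the 3 CON libraries (blue) and the 3 LKO libraries (orange), with the symbol giving the library number and the dotted line at 1 FPKM. The groups overlap for most genes, while Usp18, Oasl1, Ddx58 and Ifit2 lie lower and Isg15 lies higher in every LKO library.

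None of the 33 tested members passed the threshold in either direction (limma on log2(FPKM + 1), Benjamini-Hochberg adjusted p under 0.05 over 11104 genes), and the smallest adjusted p was 0.182. Over all genes 0.00901% passed as lower in LKO, which is 1 gene, and 0.0% as higher. At an unadjusted p under 0.05, 3 of the 33 members were lower (Usp18, Oasl1 and Ifih1), against 18.9% of all genes, and 0 were higher, against 3.25%. The groups did not overlap for 3 tested members with LKO below (Usp18, Oasl1 and Ddx58), against 24.3% of all genes, and for 1 with LKO above (Isg15), against 3.92%. The members' shares with LKO lower were below the background, and those with LKO higher were near it.

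With all 6 libraries and the filter on low values, the members' median lay slightly above that of all genes, a gap that did not hold in every setting. The median log2 fold change of the members was -0.12, against -0.23 over all genes tested. Of the 33, 20 had a negative value (60.6%, against 71.6% of all genes), and 22 lay above the median of all genes. The general shift of -0.23 is removed by median-ratio scaling of the libraries, after which the members' median was 0.13 and that of all genes 0.01. With the length trend of each library removed, the medians were 0.18 and 0.0043. Without LKO 3 they were -0.27 and -0.29, a gap of 0.0234, and without the filter on low values the gap reversed to -0.099. The sign of the members' median thus depended on the scaling.

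**Figure D2:**
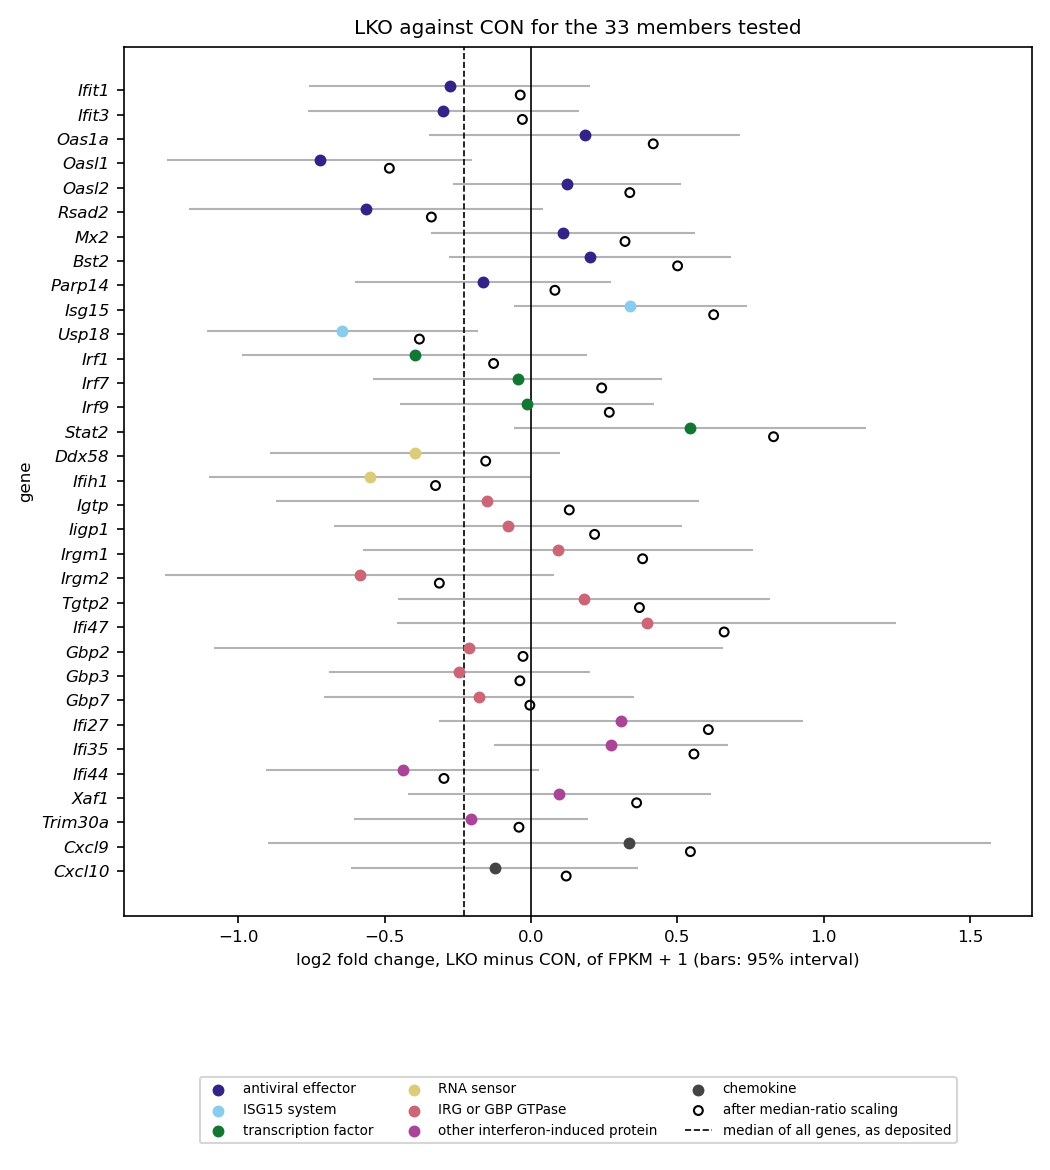
Log2 fold change (LKO minus CON, of FPKM + 1) of the 33 tested members, grouped by role, as filled points with 95% intervals from limma, with open points after median-ratio scaling and the dashed line at the median of all genes (-0.23). Only the intervals of Oasl1, Usp18 and Ifih1 leave out 0, and scaling moved every point to the right.

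Among the antiviral effectors, 9 of 11 were tested, 0 passed, 5 had a negative value and their median was -0.17. Oasl1, an oligoadenylate synthetase-like protein known to restrain translation of Irf7 mRNA, was at 6.81, 5.66 and 4.04 FPKM in CON and 3.62, 2.52 and 2.59 FPKM in LKO. Every LKO value was below every CON value, with a log2 fold change of -0.72 (SE 0.22, 95% interval -1.24 to -0.20, adjusted p = 0.182). Rsad2 (viperin, an enzyme that makes a chain-terminating nucleotide) was at 5.59, 3.46 and 3.32 FPKM in CON and 2, 1.88 and 3.56 FPKM in LKO. Its first and second LKO libraries were below all CON libraries and LKO 3 was within them, with a log2 fold change of -0.56 (SE 0.26, adjusted p = 0.242).

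The related genes Ifit1, Ifit2 and Ifit3, whose proteins bind viral RNA, all had their lowest library in LKO 1. Over all genes tested, LKO 1 or LKO 2 was the lowest library for 60.2%. Ifit3 was at 12.75, 9.40 and 8.61 FPKM in CON and 7.35, 7.69 and 9.15 FPKM in LKO, with a log2 fold change of -0.30 (SE 0.20, adjusted p = 0.367). Ifit2, not tested for its low level, was at 1.02, 0.83 and 0.94 FPKM in CON and 0.58, 0.70 and 0.74 FPKM in LKO, so all its LKO values were below all its CON values. Ifit1 spanned 3.38 to 5.52 FPKM in CON and 2.94 to 3.77 FPKM in LKO, with a log2 fold change of -0.28. After median-ratio scaling the log2 fold changes of Ifit1 and Ifit3 were -0.04 and -0.03. The counting of reads between Ifit3 and its near-identical copy Ifit3b is not stated, so its value is uncertain.

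The other effectors overlapped between the groups. Bst2 (0.20), Oas1a (0.18), Oasl2 (0.12) and Mx2 (0.11) had positive log2 fold changes with adjusted p-values of 0.547 to 0.734. The value of Mx2 turned to -0.01 without LKO 3, and that of Bst2 to -0.06 without LKO 3 and with the length trend removed. Parp14, an ADP-ribosyltransferase, had a log2 fold change of -0.17 that turned to 0.08 after median-ratio scaling. Mx1, a dynamin-like GTPase, was at 0.67 to 1.01 FPKM in CON and 0.45 to 0.92 FPKM in LKO. Oas1a has near-identical neighbours in the Oas1 family, which makes its value uncertain.

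The 2 genes of the ISG15 system lay on opposite sides. Isg15, a ubiquitin-like protein that is attached to other proteins during the interferon response, was at 16.23, 15.56 and 15.64 FPKM in CON and 23.12, 20.87 and 17.22 FPKM in LKO. Every LKO value was above every CON value, with LKO 3 closest to CON. The log2 fold change was 0.34 (SE 0.17, 95% interval -0.06 to 0.74, adjusted p = 0.268). Usp18, the protease that removes ISG15 and also restrains signalling at IFNAR2, was at 8.62, 9.13 and 12.1 FPKM in CON and 5.76, 5.17 and 7.01 FPKM in LKO. Every LKO value was below every CON value, with a mean of 5.98 ± 0.94 FPKM (SD, n = 3) in LKO against 9.95 ± 1.88 FPKM (SD, n = 3) in CON. Its log2 fold change was -0.64 (SE 0.20, 95% interval -1.11 to -0.18, adjusted p = 0.182), and -0.38 after median-ratio scaling.

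Of the 4 transcription factors, Stat2 had the largest value. Stat2, the subunit that gives ISGF3 its activation domain, was at 12.43, 13.87 and 18.76 FPKM in CON and 25.43, 27.12 and 15.44 FPKM in LKO. Every CON library was exceeded by LKO 1 and LKO 2, and LKO 3 lay among them. The log2 fold change was 0.54 (SE 0.26, 95% interval -0.06 to 1.15, adjusted p = 0.250), and 0.87 with the length trend removed. Irf1, a factor induced above all by type II interferon, was at 10.47, 8.49 and 13.16 FPKM in CON and 5.60, 7.93 and 10.43 FPKM in LKO, with a log2 fold change of -0.40 (SE 0.25, adjusted p = 0.350). Its groups overlapped, with LKO 1 the lowest library.

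Irf7, which amplifies type I interferon, was at 18.37, 24.19 and 23.94 FPKM in CON and 20.12, 27.08 and 17.64 FPKM in LKO. The groups overlapped, and a log2 fold change of -0.05 (SE 0.21; adjusted p = 0.906) became 0.24 once libraries were scaled by median ratios. Irf9, the DNA-binding subunit of ISGF3, spanned 14.1 to 17.1 FPKM in CON and 14.0 to 19.0 FPKM in LKO. A log2 fold change of -0.01 for Irf9 turned to 0.27 after that scaling. Irf7 overlaps Phrf1 on the opposite strand and Irf9 overlaps Rnf31 on the same strand, per the GENCODE M21 annotation. The strand setting of the counting is not given in the sources used here, so reads of such pairs may be mixed.

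Both cytosolic RNA sensors had lower values in LKO. Ifih1, which encodes MDA5, was at 4.95, 3.79 and 4.10 FPKM in CON and 2.40, 1.82 and 3.83 FPKM in LKO. All CON libraries exceeded LKO 1 and LKO 2, and LKO 3 was just above the lowest CON library. The log2 fold change was -0.55 (SE 0.24, unadjusted p = 0.0497, adjusted p = 0.225), and -0.19 with the length trend removed. Ddx58, which encodes RIG-I, was at 6.52, 3.98 and 4.01 FPKM in CON and 3.13, 3.32 and 3.61 FPKM in LKO. Every LKO value was below every CON value, and CON 1 stood above the rest. Its log2 fold change was -0.40 (SE 0.21, adjusted p = 0.289), and -0.09 with the length trend removed.

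The immunity-related and guanylate-binding GTPases, which coat and break pathogen vacuoles, showed 0 of 9 past the threshold, 6 of 9 with a negative value and a median of -0.15. Irgm2 was at 16.82, 12.55 and 11.77 FPKM in CON and 7.32, 6.45 and 13.74 FPKM in LKO. Again LKO 1 and LKO 2 were below all CON libraries and LKO 3 was among them, with a log2 fold change of -0.58 (SE 0.29, 95% interval -1.25 to 0.08, adjusted p = 0.258). Gbp3 was at 2.84, 2.28 and 2.87 FPKM in CON and 1.99, 1.68 and 2.65 FPKM in LKO (log2 fold change -0.25, SE 0.19, adjusted p = 0.435). Ifi47 was at 9.35, 7.62 and 7.37 FPKM in CON and 17.04, 5.40 and 13.68 FPKM in LKO. The LKO libraries of Ifi47 enclosed the CON range, and the 0.39 log2 fold change (SE 0.37, adjusted p = 0.507) did not exceed that spread.

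The GTPases differed more among the LKO libraries than between the groups. The genes of this paragraph were named after their values were seen. Igtp was at 19.88, 14.75 and 15.43 FPKM in CON and 11.69, 10.99 and 25.01 FPKM in LKO. Iigp1 was at 88.74, 84.05 and 109 FPKM in CON and 78.06, 68.89 and 128 FPKM in LKO. In both genes LKO 1 and LKO 2 were the lowest of the 6 libraries and LKO 3 the highest. Gbp2 was at 2.61, 1.59 and 2.55 FPKM in CON and 1.01, 1.06 and 4.15 FPKM in LKO, the same order with a wider gap. Irgm1, a regulator of the other GTPases, was at 30.94, 26.34 and 24.28 FPKM in CON and 27.4, 19.73 and 44.46 FPKM in LKO. Tgtp2 spanned 1.17 to 2.44 FPKM in CON and was at 2.02, 1.38 and 3.27 FPKM in LKO, and Gbp7 spanned 1.30 to 2.03 FPKM in CON and was at 0.97, 1.05 and 2.02 FPKM in LKO.

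LKO 3 was the highest of all 6 libraries for 5 of the 9 GTPases (Irgm1, Iigp1, Igtp, Gbp2 and Tgtp2), against 11.4% of all genes. It exceeded both LKO 1 and LKO 2 for 8 of the 9, against 50.9% of all genes. Over all 33 members LKO 3 was the highest library for 9 (27.3%). The median deviation of the 9 GTPases from the CON mean, on the log2(FPKM + 1) scale, was -0.29, -0.45 and 0.57 in LKO 1, LKO 2 and LKO 3. It was -0.10, -0.09 and 0.71 after median-ratio scaling, and -0.01, -0.05 and 0.70 with the length trend removed, so LKO 3 stood above the other LKO libraries on each scale. Over all genes the deposited values gave -0.21, -0.38 and -0.11. The antiviral effectors had medians of -0.30, -0.13 and 0.06 as deposited, highest in LKO 3 but over a narrower range. Their medians were highest in LKO 2 after median-ratio scaling (-0.08, 0.26 and 0.16) and with the length trend removed (0.11, 0.25 and 0.18). LKO 3 exceeded both other LKO libraries for 4 of 9 effectors (44.4%). Summed FPKM of the 9 GTPases was 175, 152 and 177 in CON and 147, 117 and 237 in LKO.

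The map of deviations by library sets these genes beside the other members. Reads of several GTPases may be mixed. Tgtp2 has the near-identical neighbour Tgtp1, Gbp genes resemble each other, Igtp and Irgm2 overlap on the same strand, and Olfr56 (mean 1.18 FPKM) overlaps Ifi47 on the same strand and Tgtp2 on the opposite strand. Tgtp1, which is not a member, was at 2.45 to 3.36 FPKM in CON and 1.94, 1.26 and 7.63 FPKM in LKO.

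**Figure D3:**
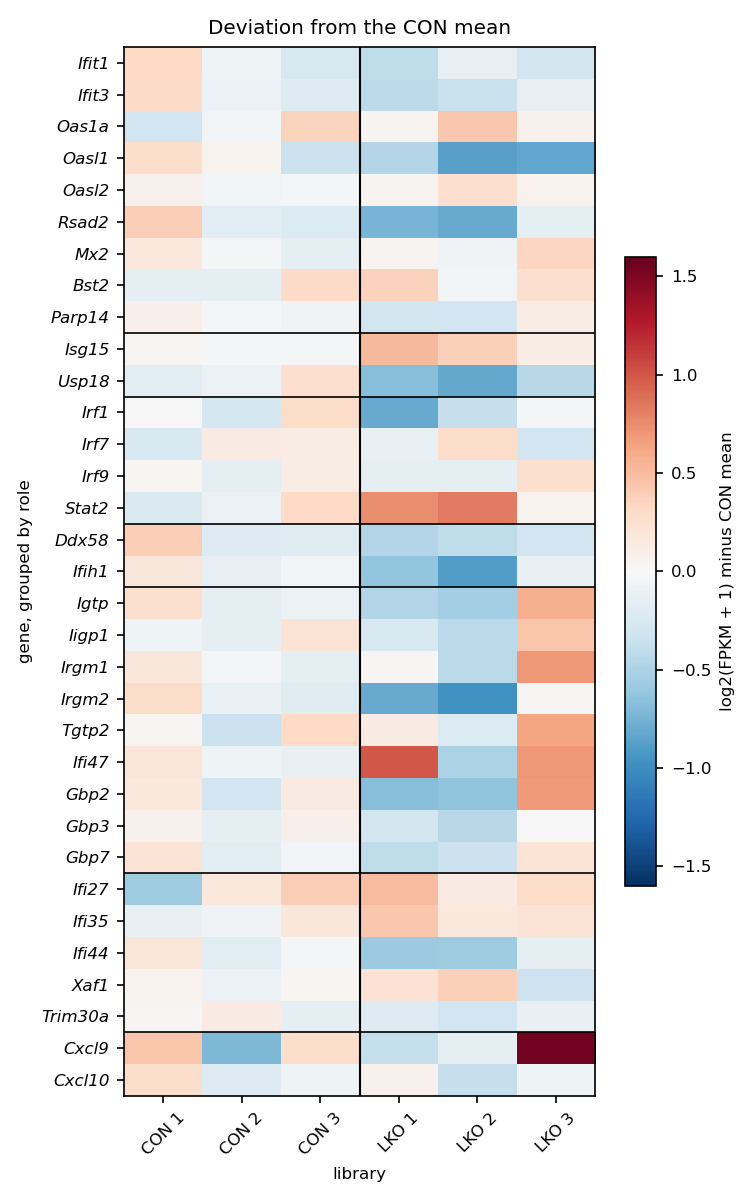
Deviation of each tested member from its CON mean on the log2(FPKM + 1) scale (colour, red above and blue below) in each of the 6 libraries, with black lines between the roles and between CON and LKO. In LKO 3 the GTPases from Igtp to Ifi47 are mostly red and Cxcl9 is darkest, while in LKO 1 and LKO 2 most GTPases are blue.

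The chemokines that draw T cells and NK cells through the receptor CXCR3 were split. Cxcl9, induced mainly by type II interferon, was at 3.48, 0.99 and 2.98 FPKM in CON and 1.53, 1.94 and 8.57 FPKM in LKO. LKO 3 was the highest library, and the LKO range enclosed most of the CON values. A log2 fold change of 0.33 (SE 0.53, 95% interval -0.90 to 1.57, adjusted p = 0.702) turned to -0.27 without LKO 3. Cxcl10 was at 5.82, 3.83 and 4.31 FPKM in CON and 4.88, 3.33 and 4.31 FPKM in LKO. Its groups overlapped, and a log2 fold change of -0.12 (SE 0.21; adjusted p = 0.723) became 0.12 under median-ratio scaling. Art3 overlaps Cxcl10 on the opposite strand.

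Some markers of T cells and NK cells and of hepatocytes were also highest in LKO 3. The summed FPKM of 11 markers of T cells and NK cells was 4.99, 5.84 and 5.57 in CON and 6.69, 5.84 and 9.39 in LKO. LKO 3 was the highest library for 7 of the 11 (Cd3e, Cd3g, Cd8a, Gzma, Gzmb, Nkg7 and Prf1) and not for Cd4, Trac, Ncr1 and Klrb1c. However, 9 of the 11 had a mean under 1 FPKM, and 7 were under 1 FPKM in every library. The order of libraries is uncertain at such low values. Of the 2 markers that were tested, LKO 3 was the highest library for 1, against 11.4% of all genes tested. Among the 11, Cd8a was at 0.13 to 0.17 FPKM in CON and 0.05, 0.10 and 0.45 FPKM in LKO, and the NK receptor gene Klrb1c was at 0.13 to 0.22 FPKM in CON and 0.09 to 0.10 FPKM in LKO. The NK receptor gene Ncr1 was at or near 0 in every library (at most 0.10 FPKM). Ccl5, a chemokine of T cells and NK cells, was at 5.15, 4.52 and 6.25 FPKM in CON and 6.14, 8.82 and 17.27 FPKM in LKO.

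Hepatocyte markers had a median deviation from the CON mean of -0.32, -0.42 and 0.17 in LKO 1, LKO 2 and LKO 3, and of -0.06, 0.06 and 0.32 after median-ratio scaling. LKO 3 was the highest library for 3 of the 10 (30%), Cps1, Hnf4a and Serpina1a, against 11.4% of all genes. Others differed: Alb, Fgb and Cyp3a11 were highest in a CON library and Apoa1 in LKO 1. Asgr1 was lowest in LKO 3, at 386 FPKM against 427 to 471 FPKM elsewhere. The sum of the 10 in LKO 3, 55570 FPKM, lay within the CON range of 49230 to 70030 FPKM. Cps1, the first enzyme of the urea cycle, was at 397 to 482 FPKM in CON and 193, 159 and 560 FPKM in LKO. The sum of 10 Kupffer cell markers was 377 FPKM in LKO 3, against 245 to 285 in CON and 197 and 265 in LKO 1 and LKO 2. That sum was high through C6 alone, at 192 FPKM in LKO 3 and 37.2 to 113 FPKM in CON, and LKO 3 was the highest library for none of the other Kupffer cell markers. The part of these cells in the GTPase and Cxcl9 values was not tested.

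The other interferon-induced proteins showed 0 of 5 past the threshold, 2 of 5 with a negative value and a median of 0.10. Ifi44, a cytoplasmic antiviral protein, was at 1.61, 1.04 and 1.26 FPKM in CON and 0.53, 0.54 and 1.05 FPKM in LKO, with a log2 fold change of -0.44 (SE 0.20, adjusted p = 0.239). In CON no library was as low as LKO 1 and LKO 2. Ifi35, a leucine-zipper protein, was at 14.49, 15.21 and 18.09 FPKM in CON and 21.68, 17.98 and 18.63 FPKM in LKO (log2 fold change 0.27, SE 0.17, adjusted p = 0.346). Only CON 3 reached into the LKO range. Trim30a, which restrains inflammatory signalling, was at 1.5, 1.69 and 1.22 FPKM in CON and 1.14, 1 and 1.27 FPKM in LKO (log2 fold change -0.21, SE 0.17, adjusted p = 0.461). Its value turned to 0.09 with the length trend removed, and a small nuclear RNA gene, Gm25405, overlaps it on the opposite strand. Ifi27 had a log2 fold change of 0.31 and Xaf1, a partner of the apoptosis inhibitor XIAP, of 0.10, both with overlapping groups.

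Gene length went along with the sign of the difference. The members under 1500 bases long in the deposited file, Isg15, Bst2, Ifi27 and Ifi35, all had positive values (4 of 4, median 0.29), while 9 of 29 longer members did (median -0.17). Over all genes, 1155 of 2101 under 1500 bases were positive (median 0.05) and 1995 of 9003 longer ones (median -0.28). With the length trend of each library removed, the medians of the shorter and longer members were 0.23 and 0.10. Across the 33 members the Spearman rho between log2 fold change and length was -0.29, and across all genes -0.30. These are descriptions across genes, which share the same 6 libraries. Set against the middle quartiles of all genes of like length, 12 members lay above (Cxcl9, Ifi35, Ifi47, Irf7, Irf9, Irgm1, Mx2, Oas1a, Oasl2, Stat2, Tgtp2 and Xaf1), 4 lay below (Irgm2, Oasl1, Rsad2 and Usp18) and 17 within.

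**Figure D4:**
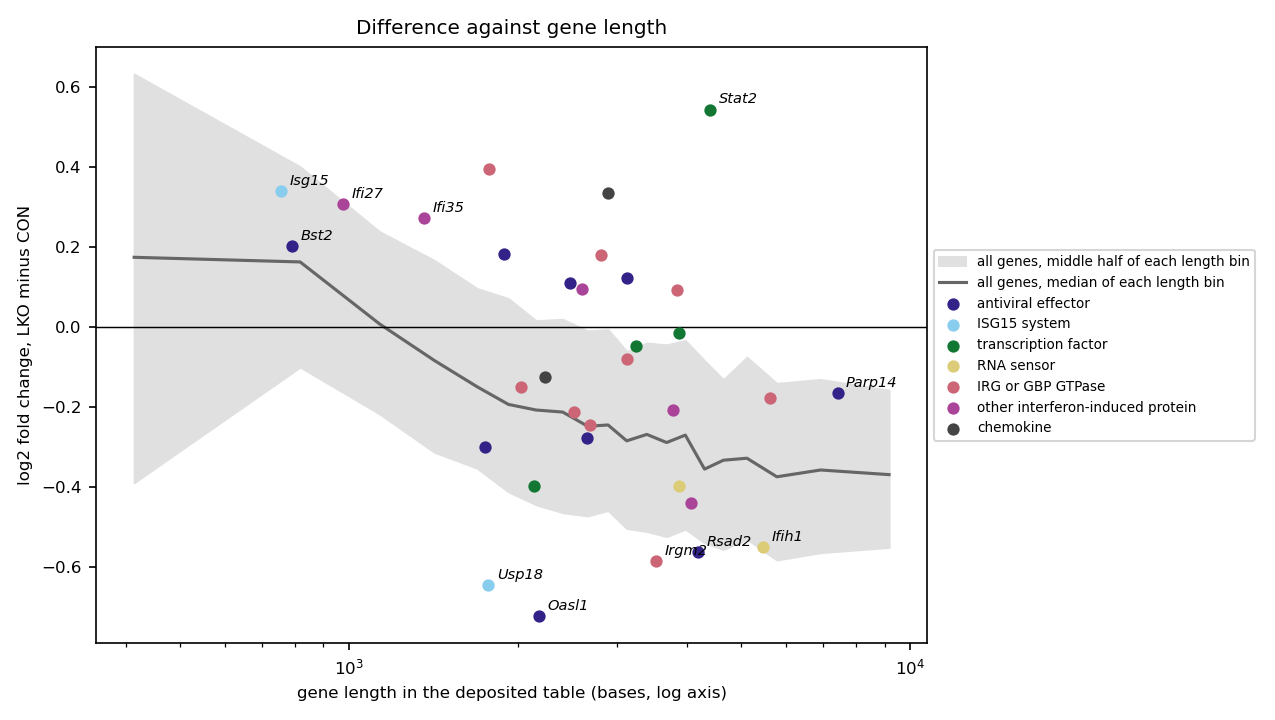
Log2 fold change (LKO minus CON, of FPKM + 1) of the tested members against gene length in the deposited file (bases, log axis), coloured by role, with the grey line at the median of all genes in bins of length and the grey band covering their middle quartiles. The 4 members under 1500 bases are all above 0, and by bin of length 12 members lie above the middle quartiles, Stat2 among them, and 4 below, Usp18 and Oasl1 among them.

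The number of members that passed depended on LKO 3. Without it, 4 of the 33 passed (limma adjusted p under 0.05). Usp18 (-0.75, adjusted p = 0.0372), Ifih1 (-0.76, adjusted p = 0.0344) and Irgm2 (-0.89, adjusted p = 0.0282) were lower in LKO, against 19.0% of all genes, and Stat2 (0.79, adjusted p = 0.0370) was higher, against 4.6%. The length trend of LKO 1 and LKO 2 is opposite to that of CON, so in that fit the group and the trend cannot be told apart. With the trend removed as well, 0 were lower, against 5.66% of all genes, and Stat2 (1.21, adjusted p = 0.0343) and Xaf1 (0.60, adjusted p = 0.0493) were higher, against 6.4%. With median-ratio scaling in its place, Ifih1 was lower (-0.49, adjusted p = 0.0489), against 8.26%. Isg15 (0.81, adjusted p = 0.0195), Stat2 (1.14, adjusted p = 0.0277), Xaf1 (0.64, adjusted p = 0.0351) and Ifi35 (0.65, adjusted p = 0.0369) were higher, against 11.3%. Stat2 was the only member that passed in all 3 of these fits, and it did not pass with LKO 3 included. Median-ratio scaling left the length trend in place. With all libraries, the Spearman rho between log2 fold change and length across all genes was -0.32 after scaling and -0.30 as deposited. The scaled fit without LKO 3 therefore cannot tell the group and the trend apart either. In the fit without LKO 3 and the trend, Isg15 (0.21), Ifi35 (0.34) and Ifih1 (-0.29) did not pass.

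The pathway above these genes was followed in 4 further lists. Of 21 interferon ligand genes, 0 reached a mean of 1 FPKM and 18 were listed at 0 in every library, Ifnb1 among them. Ifng, the type II interferon, was at 0.02, 0.03 and 0 FPKM in CON and 0.06, 0 and 0.13 FPKM in LKO. These values are too low to compare between groups, and the depth in reads is unknown.

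Of 17 genes for interferon receptors and JAK-STAT signalling, 15 were tested, 0 passed and 14 had a negative value, with a median of -0.23 that was close to that of all genes and turned to 0.01 after median-ratio scaling. Stat3, which relays interleukin signals as well, was at 22.01, 20.79 and 20.85 FPKM in CON and 5.58, 6.07 and 19.08 FPKM in LKO. Its LKO values were below CON, by far more in LKO 1 and LKO 2 than in LKO 3 (log2 fold change -1.18, SE 0.40, adjusted p = 0.189). The groups did not overlap for 3 of the 15 with LKO below, against 24.3% of all genes. The kinases Jak2 (-0.53, adjusted p = 0.196) and Jak1 (-0.68, adjusted p = 0.226) and the phosphatase Ptpn11 (-0.62, adjusted p = 0.245) also had negative values.

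The receptor genes overlapped between the groups. Ifnar1 was at 7 to 10.26 FPKM in CON and 5.12 to 8.58 FPKM in LKO (log2 fold change -0.31, adjusted p = 0.411). Ifnar2 was at 77.9 to 83.5 FPKM in CON and 67.2 to 79.3 FPKM in LKO (-0.09, adjusted p = 0.721). Ifngr1 was at 8.06, 7.48 and 9.25 FPKM in CON and 5.59, 7.27 and 11.56 FPKM in LKO (-0.07, adjusted p = 0.882). Ifngr2, the signalling chain of the type II receptor, was at 5.47, 3.77 and 5.26 FPKM in CON and 3.26, 2.29 and 9.57 FPKM in LKO (-0.13, adjusted p = 0.860). In both type II receptor genes LKO 3 was the highest library and LKO 1 or LKO 2 the lowest. LKO 3 was the highest library for 2 of the 15 tested receptor and JAK-STAT genes (13.3%), close to the 11.4% of all genes. After median-ratio scaling the values of Ifnar2, Ifngr1 and Ifngr2 turned positive (0.20, 0.20 and 0.11).

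Of 23 genes for sensing of nucleic acids found by symbol, 18 were tested, 0 passed, 10 had a negative value and the median was -0.17. LKO 3 was the highest library for 6 of these 18 (33.3%), against 11.4% of all genes. Ikbke, a kinase that activates IRF3 and IRF7, was at 3.48, 3.02 and 2.47 FPKM in CON and 5.83, 5.41 and 5.33 FPKM in LKO. Every LKO value, LKO 3 included, was above every CON value (log2 fold change 0.72, SE 0.18, unadjusted p = 0.00391, adjusted p = 0.175). Of the 18, 1 had LKO above CON without overlap (Ikbke), against 3.92% of all genes, and 1 had LKO below, against 24.3%. Irf3 was at 29.34, 27.00 and 27.45 FPKM in CON and 51.15, 40.76 and 25.99 FPKM in LKO (log2 fold change 0.43, SE 0.25, adjusted p = 0.317). Its high libraries were LKO 1 and LKO 2, as in Stat2, and LKO 3 was the lowest. Irak1 (-0.57), Irak4 (-0.43) and Trim25 (-0.53), which act in these pathways, had adjusted p-values of 0.237 to 0.267.

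Of 68 further interferon-stimulated genes found by symbol, 51 were tested and 0 passed. A negative value was found for 32, and the median of -0.12 was close to that of the 33 members. At an unadjusted p under 0.05, 6 were lower (against 18.9% of all genes) and 2 were higher (against 3.25%). The smallest p-values belonged to Shisa5 (-0.79), Parp12 (-0.81), Trim34a (-0.68) and Serping1 (-0.60), whose LKO values were all below their CON values, with adjusted p-values of 0.179 to 0.198. The groups did not overlap for 11 of the 51 with LKO below, against 24.3% of all genes, and for 1 with LKO above, against 3.92%. Serping1, the C1 inhibitor secreted by hepatocytes, was at 470 to 638 FPKM in CON and 294 to 432 FPKM in LKO.

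The promoter letters did not go along with a clear difference in expression. The 16 tested members with an ISRE core had a median log2 fold change of -0.16, with 10 negative. The 12 tested members without one had a median of -0.03, with 7 negative. Isg15 and Rsad2, both printed above with an ISRE core, lay on opposite sides of 0. Igtp, Irgm2 and Gbp2, which share the high LKO 3 value relative to LKO 1 and LKO 2, each hold an ISRE core, and Gbp2 has no GAS match in its window.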

How the data were processed

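RNA-seq of 6 liver libraries (CON 1 to 3, LKO 1 to 3) was deposited as FPKM per gene, computed by the authors with HISAT2 and StringTie on build mm9, per the submitters' processing notes; the sources used here give no versions or annotation release. Within a limited range of step sizes, values times gene length did not fall on whole reads. Steps outside that range, as for deeper libraries, were not searched. No count model was fitted, and depth in reads is unknown. Genes with a mean of at least 1 FPKM (11104) were taken to log2(FPKM + 1) and tested with limma 3.58.1 in R 4.3.3 (two-sided; eBayes, trend on mean level), Benjamini-Hochberg over all genes, threshold 0.05. A log2 fold change on this scale understates low genes. SE is limma's moderated standard error.

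The members, the pathway and marker lists and the rules were chosen with earlier results of these data known. All members are named. Values in every library are given for members whose groups do not overlap and for the 3 of each role with the smallest p. Of each pathway list, up to 4 genes with the smallest p are given, with Irf3 and the receptor genes. One gene that the rule names is not reported here. The steps were tested on simulated data with independent noise for each gene. That simulation held no library-wide shift, length trend or outlying library, so it does not cover these features of the data. Promoters are from RefSeq (GRCm38.p6), overlaps from GENCODE M21. The symbols Mb21d1 and Mnda were not matched.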

Additional observations from a re-analysis of the deposited data

How the results depend on the processing

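Over all genes, 1 gene passed the threshold as deposited, and 0 with a pseudocount of 0.1, without a filter on low values, with a filter at a mean of 5 FPKM, or with the length trend removed. Leaving out 1 library in turn gave 0 to 2626 genes, 2626 being without LKO 3, and the members that passed ranged from 0 to 4. Alternatives chosen after seeing the data left out LKO 3 and also removed the length trend (1339 genes, 2 members) or scaled by median ratios (2176 genes, 5 members). In every fit that left out a library, the filter and any scaling or trend removal were computed before that library was dropped. Cd36 ranged from -2.98 to -2.03 over the libraries left out, passing without LKO 3 (adjusted p = 0.0165), and was -2.61 and -2.65 in those 2 added fits, also past the threshold (adjusted p = 0.0331 and 0.0240). No member passed under the other alternatives. In a fit with the replicate number as a block (replicate block) 0 genes and 0 members passed, with a smallest adjusted p among members of 0.190. The deviations of same-numbered libraries had correlations of -0.046, 0.168 and 0.070, against -0.156 to 0.055 for pairs of unlike number. With so few libraries these values cannot show whether same-numbered libraries share more than a number.

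The gap between the members' median and the all-gene median was 0.105 as deposited, -0.099 without the filter (many genes near 0 then enter), 0.273 with the filter at 5 FPKM, 0.0234 to 0.251 over the libraries left out (lowest without LKO 3) and 0.0192 without LKO 3 after median-ratio scaling. Over 16 alternatives 17 members kept their sign and 16 reversed it at least once, and the cause was not tested. Median-ratio scaling turned Parp14 (0.0813), Irf7 (0.241), Irf9 (0.267), Igtp (0.13), Iigp1 (0.217) and Cxcl10 (0.12). Quantile normalization turned Parp14 (0.0922), Irf7 (0.153), Irf9 (0.204), Igtp (0.0735), Iigp1 (0.0739), Gbp7 (0.0101) and Cxcl10 (0.123). Removing the length trend turned Parp14 (0.206), Irf7 (0.23), Irf9 (0.287), Igtp (0.0488), Iigp1 (0.19), Gbp2 (0.0243), Gbp7 (0.18), Trim30a (0.0905) and Cxcl10 (0.0954).

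Without LKO 3 and the length trend the reversed values were Ifit1 0.0283, Bst2 -0.0564, Parp14 0.191, Irf7 0.434, Irf9 0.238, Gbp7 0.1, Trim30a 0.131 and Cxcl10 0.112. Without LKO 3 and with median-ratio scaling they were Ifit1 0.0284, Parp14 0.000335, Irf7 0.44, Irf9 0.2, Iigp1 0.0255, Cxcl9 -0.0108 and Cxcl10 0.154. Over the libraries left out, Irf9 ranged from -0.151 to 0.056, Cxcl10 from -0.23 to 0.0193, Irf7 from -0.213 to 0.0824, Cxcl9 from -0.269 to 0.691, Iigp1 from -0.343 to 0.0968 and Igtp from -0.509 to 0.0501. Gbp2 ranged from -0.659 to 0.0194, Xaf1 from -0.0485 to 0.311, Mx2 from -0.0103 to 0.196, Irgm1 from -0.209 to 0.357 and Tgtp2 from -0.0442 to 0.377.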
